A study of Saccharomyces cerevisiae with 12 samples.

Results

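The 7 histidine biosynthesis genes of budding yeast, HIS1 to HIS7, were examined by RNA-seq in DUS KO and in WT cells. They were chosen by systematic name (HIS1 is YER055C, HIS2 is YFR025C, HIS3 is YOR202W, HIS4 is YCL030C, HIS5 is YIL116W, HIS6 is YIL020C and HIS7 is YBR248C) among the 6612 features that the deposited tables list, and all 7 were found and tested. DUS KO is the strain labelled dus1Δ dus2Δ dus3Δ dus4Δ, that is, lacking the 4 dihydrouridine synthase genes by its label, and WT is the laboratory strain BY4741. Both strains were harvested in mid-log phase, and poly(A) RNA from 3 replicates of each was sequenced without NaBH4. The study's methods give an optical density for the culture and name no growth phase. The mutant was obtained by mating strains that each lacked a pair of DUS genes and dissecting tetrads. BY4741 is known to carry an internal deletion in HIS3, while no source used here gives the HIS3 allele of DUS KO.

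Histidine is made from phosphoribosyl pyrophosphate (PRPP) and ATP in 10 steps. HIS1 encodes ATP phosphoribosyltransferase, which catalyzes step 1 and is feedback-inhibited by histidine. HIS4 encodes a single protein with the activities of steps 2, 3, 9 and 10. The isomerase of step 4 is encoded by HIS6, and the glutamine amidotransferase and cyclase of step 5 by HIS7. Step 5 also releases AICAR, an intermediate of purine synthesis. HIS3 encodes the dehydratase of step 6, HIS5 the aminotransferase of step 7 and HIS2 the phosphatase of step 8. Under amino acid starvation the transcription factor Gcn4 raises the transcription of genes of many amino acid pathways, the histidine genes among them, and Bas1 with Pho2 contributes to basal transcription of some of them. Both Gcn4 and Bas1 bind sequences that hold TGACTC.

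The regions before the genes were read from the RefSeq R64 genome, the assembly of sacCer3, to show where this sequence lies. The window ran from 250 bases before to 50 bases after the first base of the start codon, and both strands were searched for TGACTC, so that a match on the opposite strand appears in reverse complement. A match was found for 6 of the 7 genes, and HIS2 had none. Over all 6001 protein-coding genes with a full window, 7.98% held a match. HIS4 and HIS7 had 2 matches each, and 0.517% of all windows had 2 or more. The sequences are given on the strand of the gene, 5′ to 3′, with the match in capitals, because 6 of the 7 genes share it.
HIS1 (chromosome V, 265951 to 265980, minus strand): aagcttccaagtGAGTCAcctctaccgttg
HIS4 (chromosome III, 68559 to 68583, minus strand): ctaatagTGACTCcggtaaattagt
HIS4 (chromosome III, 68515 to 68544, minus strand): acccatgcacagTGACTCacgtttttttat
HIS6 (chromosome IX, 314897 to 314926, minus strand): gtctagtgtgcaGAGTCAtacggaataatt
HIS7 (chromosome II, 716678 to 716707, minus strand): caaaaaaaaattGAGTCAtatcgtagcttt
HIS7 (chromosome II, 716592 to 716621, minus strand): ttcatgagaaaaGAGTCAgacatcgaaaca
HIS3 (chromosome XV, 721812 to 721841, plus strand): ccacctagcggaTGACTCtttttttttctt
HIS5 (chromosome IX, 142714 to 142743, plus strand): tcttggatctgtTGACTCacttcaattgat

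The matches began between 243 bases (HIS4) and 94 bases (HIS6) before the start codon. TATAAA, the usual core of a TATA box, was searched for in the same way and was found in 3 of the 7 windows, against 45.2% of all windows. HIS1 had 2 such matches, at 160 bases before the start codon on the strand of the gene and at 120 bases on the opposite strand. HIS3 had 1 at 68 bases before its start codon, on the strand of the gene. The single match of HIS5 lay 37 bases inside the coding sequence, on the opposite strand. These matches describe the reference sequence and were not measured in the strains.

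**Figure D1:**
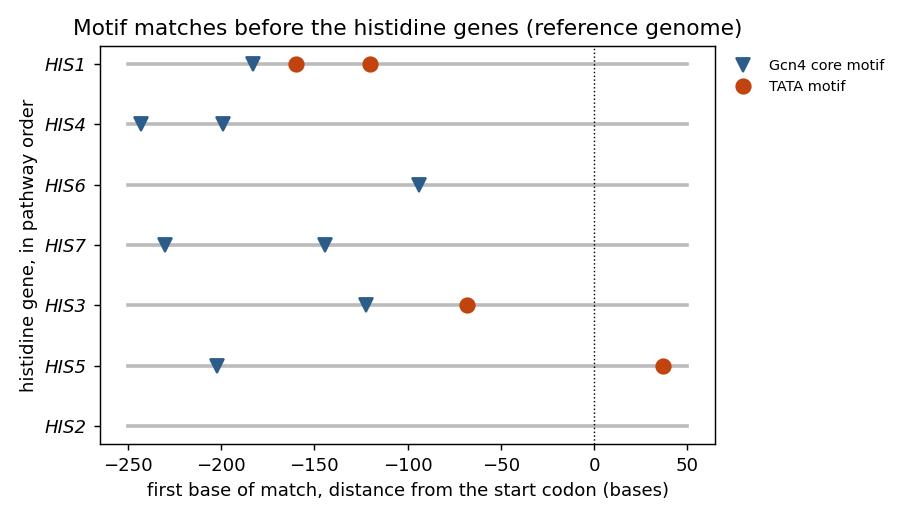
Positions of the Gcn4 core motif (blue triangles) and of the TATA motif (red circles) in the window of each histidine gene, in bases from the start codon at 0, with genes in pathway order from top to bottom. The Gcn4 core motif is present before 6 of the 7 genes and HIS2 has no match of either motif.

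The libraries held 656162 to 5500084 estimated counts in DUS KO and 4336794 to 5652837 in WT, with DUS KO replicate 3 the shallowest. DUS1 and DUS4 had no counts in any DUS KO library and 50 to 214 in the WT libraries. DUS2 had 0, 0 and 3 counts in DUS KO replicates 1, 2 and 3, against 204, 112 and 126 in WT. DUS3 had 64.1, 52.2 and 6.49 estimated counts in the libraries labelled DUS KO, against 129, 82.0 and 112 in WT. Its TPM of 1.82, 2.43 and 1.45 in DUS KO overlapped the 3.65, 1.92 and 3.39 TPM in WT. For DUS3 the counts taken alone thus go against the label. The study, however, reports a PCR check of the genotype that included DUS3. It also detected dihydrouridine in mRNA of WT but not of DUS KO. Totals per gene do not show which part of DUS3 these reads cover. URA3 and LEU2, which BY4741 lacks, were at 0 in all 6 libraries. LYS2 had 2, 0 and 1 counts in DUS KO replicates 1, 2 and 3, against 148, 330 and 86 in WT. MET17, also deleted in BY4741 by its usual genotype, had 618, 290 and 37 counts in DUS KO, against 0, 92 and 155 in WT. The reads in WT replicates 2 and 3 go against that genotype, so results without both libraries are given as well. The strains thus differed at loci other than the DUS genes, and the effects of the labelled DUS deletions and of these differences cannot be told apart. Nothing in the labels says that replicates were separate cultures, so p-values measure the spread between these libraries only. Each value is relative to the other RNA of its library, and a change in mRNA content per cell is not measured.

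HIS1 mRNA stood far above the other 6 genes in both strains. Levels are given in TPM, which corrects for length. HIS1 (chromosome V, 264892 to 265785) was at 118, 88.2 and 109.7 TPM in DUS KO replicates 1, 2 and 3, against 109, 113 and 116 TPM in WT. Within a library it was 5.43 to 7.11 times the next highest histidine gene in DUS KO and 7.69 to 10.5 times in WT. With a mean of 109 TPM over the 6 libraries it lay at percentile 93.4 of all features, while HIS6, the lowest, lay at percentile 35.1.

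The order of the mean TPM was the same in DUS KO and WT, namely HIS1, HIS3, HIS5, HIS4, HIS2, HIS7 and HIS6. HIS2 came above HIS4 in DUS KO without replicate 3, and HIS7 above HIS2 in WT without replicate 2. Among neighbours in the order, the ranges of the 3 libraries separated HIS1 from HIS3 and HIS7 from HIS6 in each strain, and the other neighbours overlapped. Over all 21 pairs of genes the ranges were separate for 15 in DUS KO and 14 in WT. HIS3 lay wholly above HIS4, HIS2, HIS7 and HIS6 in both strains, and HIS5 wholly above HIS7 and HIS6. Means of the 5 genes between HIS1 and HIS6 in the order ran from 16.6 ± 3.59 TPM for HIS3 to 4.56 ± 0.856 TPM for HIS7 in DUS KO (SD, n = 3). In WT they ran from 11.7 ± 2.97 TPM for HIS3 to 5.12 ± 1.03 TPM for HIS7 (SD, n = 3). The length of HIS3 in the tables is that of the intact gene (663 nt), so its TPM understates the level per nucleotide where part of the gene is deleted. HIS4, the mRNA behind 4 of the steps, thus lay in the middle of the order.

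**Figure D2:**
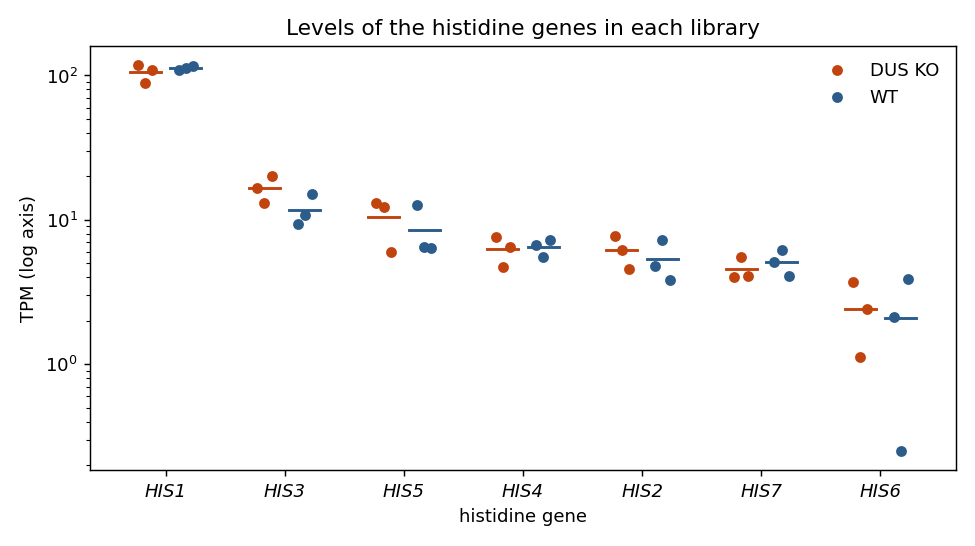
TPM of each histidine gene on a log axis, with 1 point per library and a line at the mean of 3, DUS KO in red and left of WT in blue. HIS1, at 88.2 to 118 TPM, lies above all the others in every library, and HIS6 has the widest spread, down to 0.251 TPM in WT replicate 2.

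HIS1 made up a smaller part of the summed TPM of the 7 genes in DUS KO. The sums were 171, 131 and 154 TPM in DUS KO replicates 1, 2 and 3, against 150.1, 149 and 156 TPM in WT, and they overlapped. Of them, HIS1 took 69.0%, 67.2% and 71.5% in DUS KO and 72.7%, 75.6% and 74.1% in WT. Every DUS KO library was below every WT library in this share, which does not depend on the scaling between libraries. It does depend on HIS3, which is partly deleted in BY4741 and whose allele in DUS KO is not known. HIS3 gave 16.6, 13.1 and 20.2 TPM to the sums in DUS KO, against 9.33, 10.7 and 15.0 TPM in WT. The separation of the strains in this share therefore cannot be read apart from HIS3. The share is a description and was not tested.

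The spread between libraries of a strain differed widely among the 7 genes. It is given as the coefficient of variation of normalized counts (CPM, library-size-scaled counts after TMM), beside the value that counting error alone would give. HIS1 varied by 8.96% in DUS KO and 6.67% in WT, against 4.85% and 2.37% from counting. For HIS4 the values were 17.1% in DUS KO and 6.84% in WT, against 11.9% and 5.92%, so its WT libraries hardly varied beyond counting. HIS5 varied by 36.5% in DUS KO and 43.8% in WT, against 11.3% and 7.54%. HIS6 was the most variable, at 47.1% in DUS KO and 83.3% in WT, against 33.8% and 19.4%. The excess over counting was thus larger for HIS6 in WT than in DUS KO.

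**Figure D3:**
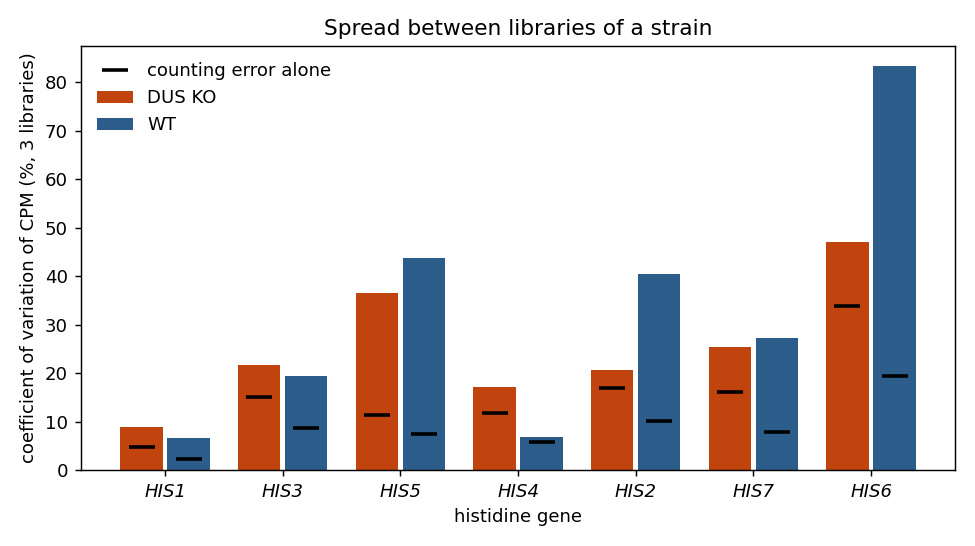
Coefficient of variation of CPM over the 3 libraries of a strain (bars, DUS KO in red and WT in blue) and the value expected from counting error alone (black marks). HIS1 has the smallest bars, and HIS6 in WT reaches 83.3% where counting alone gives 19.4%.

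Whether loss of the DUS enzymes goes with another level of the histidine mRNAs was tested with edgeR's quasi-likelihood test over 5884 features. None of the 7 genes passed an adjusted p of 0.05 in either direction, and their edgeR adjusted p ranged from 0.550 to 0.991. Over all features 0.085% passed, all of them lower in DUS KO and 0.0% higher. LYS2, nearly without counts in DUS KO, was 1 of these 5 features, and the others are not listed here. This share therefore includes a locus at which the strains differed. At an unadjusted p under 0.05, 1 of the 7 (HIS1) was lower, against 4.93% of all features, and 0 were higher, against 3.33%. In 9 of 18 alternatives the unadjusted p of HIS1 was not under 0.05, among them total counts alone, the fits on TPM and the replicate block. limma-voom called 0 of the 7 and 0 of all features. DESeq2, which called 59 features, called neither HIS1 nor HIS4 and left the adjusted p of the other 5 undefined through its own filter on low counts. The log2 fold change (DUS KO over WT) was below 0 for 5 genes and above 0 for 2, with a median of -0.09, while the median of all features was -0.02. All 3 DUS KO libraries lay below all WT libraries in CPM for 2 of the 7 genes, HIS1 and HIS4, against 7.68% of all features. None lay above, against 7.83%.

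HIS1, which encodes the enzyme of step 1, had 299, 262 and 312 CPM in DUS KO replicates 1, 2 and 3, against 378, 416 and 367 CPM in WT. The means were 291 ± 26.1 CPM in DUS KO and 387 ± 25.8 CPM in WT (SD, n = 3), and the libraries of the strains did not overlap. On the log2 scale the fold change was -0.41 (SE 0.17, 95% interval -0.79 to -0.04, edgeR unadjusted p = 0.0309, adjusted p = 0.550). With more reads than any other histidine gene, 2801 counts in DUS KO and 5353 in WT, HIS1 had the narrowest interval of the 7. By edgeR its unadjusted p was 0.0690 without DUS KO replicate 1, 0.126 without DUS KO replicate 2 and 0.0927 without WT replicate 2. The value was negative in all 18 alternatives, with edgeR, limma or DESeq2 adjusted p from 0.184 to 0.975. In TPM, however, the strains overlapped, and the log2 fold change on log2(TPM + 1) was -0.11. From counts with TMM, the log2 fold change was -0.39 without both WT libraries that held MET17 reads, against -0.41 with all libraries.

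HIS4 (chromosome III, 65934 to 68333) had 54.4, 39.0 and 52.0 CPM in DUS KO replicates 1, 2 and 3, against 65.5, 57.7 and 64.6 CPM in WT. The highest DUS KO library was below the lowest WT library, and the gap was smaller than the SD of 8.29 CPM within DUS KO. The separation depended on the TMM factors. DUS KO replicate 1 held 323 counts of HIS4 among 5500084, against 286 among 5652837 in WT replicate 2, so by total counts alone the strains overlapped. On the log2 scale the fold change was -0.38 (SE 0.24, 95% interval -0.89 to 0.14, edgeR adjusted p = 0.728). In TPM the values were 7.63, 4.68 and 6.52 in DUS KO and 6.75, 5.57 and 7.25 in WT, and they overlapped.

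HIS7 (chromosome II, 714807 to 716465) had 19.7, 31.6 and 22.3 CPM in DUS KO, against 33.9, 43.6 and 24.9 CPM in WT. DUS KO replicate 2 was above WT replicate 3, so the strains overlapped, although HIS7 had the lowest log2 fold change of the 7 (-0.47, standard error 0.33, 95% interval -1.19 to 0.25, edgeR adjusted p = 0.768). The value was negative in all 17 alternatives that gave one, from -0.72 to -0.13.

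HIS6 (chromosome IX, 314035 to 314820) had the fewest counts of the 7 genes. Its estimated counts were 49, 9 and 4 in DUS KO replicates 1, 2 and 3, against 28, 4 and 48 in WT. The WT library with 4 counts was the deepest of the 6, at 0.807 CPM for HIS6, and the strains overlapped. The log2 fold change was -0.06 with a 95% interval of -2.01 to 1.88 (edgeR adjusted p = 0.991), which in fold terms is 0.249 to 3.69. Both few counts and the spread between libraries beyond counting stand beside this wide interval, and their parts in it were not tested.

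HIS3 (chromosome XV, 721946 to 722608) gave reads in both strains, with 181, 87 and 28 counts in DUS KO and 102, 142 and 154 in WT. In TPM it was at 16.6, 13.1 and 20.2 in DUS KO, against 9.33, 10.7 and 15.0 in WT. WT replicate 3 lay within the DUS KO range, so the groups overlapped. The log2 fold change from counts was 0.17 (standard error 0.31, 95% interval -0.49 to 0.83, edgeR adjusted p = 0.933), the highest of the 7. It remained above 0 in all 18 alternatives, between 0.02 and 0.51. The tables hold totals per gene, so they do not show whether the segment deleted in BY4741 was covered in DUS KO.

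HIS5 (chromosome IX, 142928 to 144085) was at 13.1, 12.4 and 5.95 TPM in DUS KO, against 12.8, 6.48 and 6.38 TPM in WT. One library of each strain thus departed from the other pair of its strain, low in DUS KO and high in WT. Its log2 fold change was 0.03 (95% interval -0.74 to 0.80, edgeR adjusted p = 0.990), and -0.52 without both WT libraries that held MET17 reads. HIS2 (chromosome VI, 203743 to 204750), the gene with no TGACTC in its window, was at 7.75, 6.21 and 4.60 TPM in DUS KO, against 4.83, 7.31 and 3.85 TPM in WT. Its log2 fold change was -0.09 (95% interval -0.91 to 0.74, edgeR adjusted p = 0.980), and the strains overlapped. A missed threshold does not show that these genes were alike in the strains. The intervals of all but HIS1 spanned 0.

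**Figure D4:**
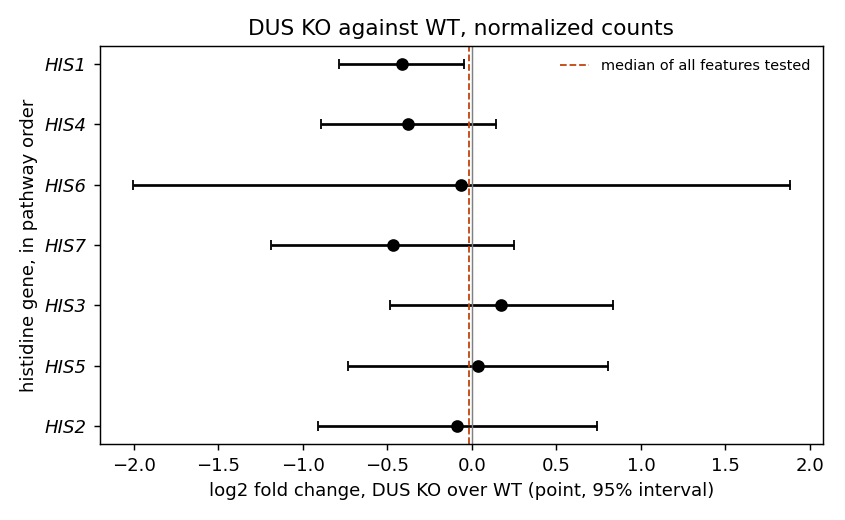
Log2 fold change of each histidine gene, DUS KO over WT, with its 95% interval from edgeR's fit, in pathway order. The red dashed line is the median of all features tested (-0.02), and only the interval of HIS1 (-0.79 to -0.04) lies wholly below 0.

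The direction for these genes depended in part on the scaling. With total counts alone the median log2 fold change of all features was 0.16, and on log2(TPM + 1) it was 0.22, against -0.02 with TMM. In TPM, 18.6% of all features had every DUS KO library above every WT library and 2.01% had every one below, and none of the 7 histidine genes was among either. Relative to the median of all features, HIS1 was at -0.40 with TMM, -0.40 with total counts and -0.32 on log2(TPM + 1). HIS4 was at -0.36 with total counts and -0.28 on log2(TPM + 1), and HIS7 at -0.43 and -0.35 with the same scalings. HIS1, HIS4 and HIS7 were below 0 in every alternative that gave them a value, and HIS3 was above 0 in every one, while HIS2, HIS5 and HIS6 took either sign.

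**Figure D5:**
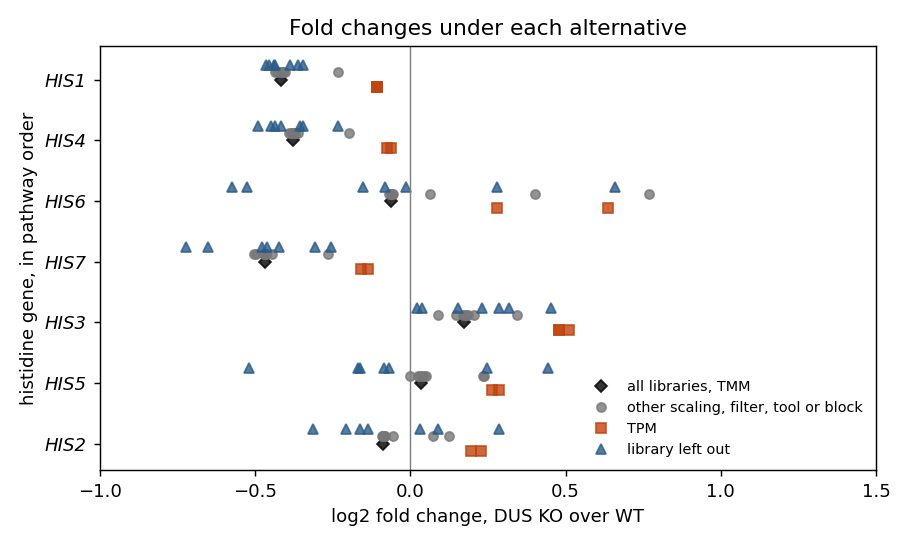
Log2 fold change of each histidine gene, DUS KO over WT, with all libraries and TMM scaling (black diamonds), with another scaling, filter, tool or block (grey circles), on TPM (red squares) and with libraries left out (blue triangles). HIS1, HIS4 and HIS7 stay left of 0 and HIS3 right of it, and HIS6 spans -0.57 to 0.77.

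Genes linked to the pathway were examined from a list of 19, which held the regulators, PRPP synthases, the enzymes that use AICAR, and genes of histidine uptake and use. All 19 were tested and none passed the edgeR adjusted threshold in either direction, as against 0.085% of all features. Their median log2 fold change was 0.04, beside -0.02 for all features, with 10 above 0 and 9 below. GCN4, the regulator itself, was at 212, 177 and 202 TPM in DUS KO, against 158, 158 and 224 TPM in WT, which overlapped. The mean was higher in DUS KO in TPM, at 197 TPM, against 180.0 TPM in WT, while with TMM scaling of the counts a log2 difference of -0.17 was fitted (SE 0.17, edgeR adjusted p = 0.861), so the direction turned with the scaling. Gcn4 is controlled mainly at translation, which mRNA levels do not measure.

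THG1, which encodes the enzyme that adds a guanosine to the 5′ end of histidine tRNA, was the only one of the 19 with an unadjusted p under 0.05. It had 46.0, 50.6 and 46.0 CPM in DUS KO, against 31.8, 24.6 and 28.0 CPM in WT. All DUS KO libraries were above all WT libraries, which held for 1 of the 19 genes in CPM and for 7.83% of all features. On the log2 scale the fold change was 0.76 (SE 0.26, edgeR unadjusted p = 0.0126), and it did not pass after adjustment (edgeR adjusted p = 0.466). At that unadjusted threshold 1 of the 19 was higher, beside 3.33% of all features.

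The nearest annotated genes on either side of the 7 genes were followed in the same fit. Of 14 neighbours 13 were tested, none passed the edgeR adjusted threshold (0.085% of all features did), and their median log2 fold change was -0.26, beside -0.02 for all features. HIS3 lies between MRM1, a methyltransferase gene of mitochondrial rRNA 237 nt away on the other strand, and DED1, an RNA helicase gene that starts 302 nt downstream. MRM1 had a log2 fold change of -0.11 (edgeR adjusted p = 0.953). DED1 was at 11.3, 6.35 and 7.45 TPM in DUS KO, against 9.72, 10.1 and 28.5 TPM in WT, where replicate 3 stood far above the rest. On the log2 scale the fold change was -1.21 (edgeR unadjusted p = 0.00526, adjusted p = 0.353). At an unadjusted p under 0.05, 1 of the 13 tested neighbours (DED1) was lower, beside 4.93% of all features. At that threshold 0 were higher, beside 3.33%.

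The genes were also compared by their profile over the 6 libraries. Each gene's log2 CPM was centred on its own mean and compared with the average of the 7 by the root mean square difference. The members themselves differed from their average by 0.18 (HIS4) to 0.96 (HIS6). Among 3470 other features with at least 10 counts in every library the median was 0.36. The nearest were APE1, a vacuolar aminopeptidase, at 0.05, PRE9, a proteasome subunit, at 0.05, and LEU9, an enzyme of leucine synthesis, at 0.06. The average profile was flat, between -0.13 and 0.19, and the likeness is a description over 6 libraries that share depth and scaling. The 3 nearest features lay closer to the average than any of the 7 genes did, each of which carries its own deviations.

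Beside other amino acid pathways the histidine genes were neither the lowest nor the highest. The median log2 fold change was -0.09 for the 7 histidine genes, -0.03 for 8 tested arginine genes, -0.24 for 10 branched-chain genes and -0.34 for 6 lysine genes other than LYS2. None of the genes in these lists passed the edgeR adjusted threshold, with LYS2 left out, beside 0.085% of all features, and at an unadjusted p under 0.05 the lower ones numbered 1 of 7 histidine, 0 arginine, 2 branched-chain and 2 lysine genes, beside 4.93% of all features. Differences between these lists were not tested.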

How the data were processed

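The members, lists and tests were chosen with earlier results of these data known. The authors trimmed adapters with bbduk, removed PCR duplicates by UMI and mapped to sacCer3 with bbmap, as stated for the sequencing as a whole. No source used here names the program behind the tables. Per the file headers, each deposited table holds an estimated count (not normalized) and a TPM value (normalized by effective length and library total). The deposited tables also give feature lengths, which are coding lengths for nearly all features. The labels carry 1 protocol for all libraries, with NaBH4, and the study's methods state that it was omitted for RNA-seq. D-seq libraries were not analysed here. Of the 6612 features 5929 carry a RefSeq name. Estimated counts of the 7 genes were whole (within 0.001) in every library.

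Counts were rounded. The main test was edgeR's quasi-likelihood test (edgeR 4.0.16, R 4.3.3) with filterByExpr, TMM, robust dispersion and Benjamini-Hochberg adjustment over 5884 features, DUS KO over WT. TMM factors were 1.08, 1.09 and 1.03 in DUS KO and 0.918, 0.878 and 1.03 in WT. The standard error is the log2 fold change over the square root of F. The 95% intervals use it with the moderated degrees of freedom. Alternatives used DESeq2 1.42.0, limma 3.58.1 and other scalings, filters and left-out libraries. The edgeR script was tested on simulated data. The changes planted there were larger than those fitted for the 7 genes, so the test does not show how changes of their size would fare. Counting errors take each count as Poisson and cover counting error only. Libraries of 1 strain differed beyond sampling noise. Chi-square per degree of freedom was 8.45 to 22.2 between DUS KO libraries and 26.6 to 52.6 between WT libraries, from counts not adjusted for depth. The named genes were the 7 members, a list of 19 linked genes (with values for GCN4 and any with an unadjusted p under 0.05), the nearest genes on each side (with values for those of HIS3), and the 3 features of most similar profile.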

Additional observations from a re-analysis of the deposited data

How the results depend on the processing

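The number of histidine genes called was 0 under all 18 alternatives, and so was that of the 19 linked genes, although DESeq2 left 5 of the 7 histidine genes without an adjusted p, the TPM filter kept only 2, and the minimum of 10 counts dropped HIS6. Over all features 5 were called, against 3 with total counts alone, 1 with at least 10 counts in every library, 59 with DESeq2, 0 with limma-voom (594 at an unadjusted p under 0.05), 10 on log2(TPM + 1), 29 on log2(TPM + 1) for features whose mean TPM reached 10, and 3 with the replicate block. Leaving out 1 library gave 1 (without DUS KO replicate 1) to 12 (without WT replicate 1). Without both WT replicates 2 and 3, an alternative chosen after seeing the data, 22 were called, with the lone WT library assumed to vary like DUS KO. The median of the histidine genes was 0.20 on log2(TPM + 1), 0.23 on log2(TPM + 0.1), 0.19 for the 2 genes whose mean TPM reached 10, and -0.39 without both WT replicates, against -0.09.

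HIS2 turned positive with total counts (0.13), limma-voom (0.075), log2(TPM + 1) (0.20), log2(TPM + 0.1) (0.23), and without both WT replicates (0.089). HIS5 turned negative with the replicate block (-0.00055) and without both WT replicates (-0.52). HIS6 turned positive with total counts (0.062), limma-voom (0.77), log2(TPM + 1) (0.28), log2(TPM + 0.1) (0.64) and the replicate block (0.40). With single libraries left out, HIS2 ranged from -0.31 to 0.29, HIS5 from -0.17 to 0.44 and HIS6 from -0.57 to 0.66. None of these passed a threshold, and the cause was not tested.

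Neighbours in the level order with ranges that do not overlap numbered 2 in each strain, 3 in DUS KO and 2 in WT with CPM per kilobase, 3 to 4 in DUS KO with 1 library left out (4 without DUS KO replicate 2), and 2 to 3 in WT. HIS1 stayed highest and HIS6 lowest in each of these. Same-numbered libraries deviated together at correlations of 0.03, -0.04 and -0.07, which gives no sign of pairing, and the replicate block changed no call among these genes. HIS6 had the fewest counts, 4 in DUS KO replicate 3 and in WT replicate 2, and its spread in WT was well above counting error. The part of depth in its interval was not tested.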
